A study of Mus musculus with 12 samples.

Results

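The genes described here are 31 genes of cholesterol and fatty acid synthesis and of its control, out of 18269 genes in the deposited expression table. They were chosen by symbol, with earlier results of these data known. By role they comprise 7 genes of the mevalonate pathway (Acat2, Hmgcs1, Mvk, Pmvk, Mvd, Idi1 and Fdps) and 11 enzymes from squalene to sterol (Fdft1, Sqle, Lss, Cyp51, Tm7sf2, Msmo1, Nsdhl, Hsd17b7, Ebp, Sc5d and Dhcr7). A further 4 encode the SREBP transcription factors and their control (Srebf1, Srebf2, Scap and Insig1), 2 act in intracellular cholesterol transport (Npc1 and Stard4), and 7 act in fatty acid synthesis (Acly, Acss2, Acaca, Fasn, Elovl6, Scd1 and Scd2). All 31 were found in the table and all passed the filter on low values. Srebf1, Acly, Acaca and Fasn lie on chromosome 11, the chromosome of Gcn5 itself (gene symbol Kat2a), and Acly lies 177 kb from Kat2a. Nsdhl and Ebp lie on the X chromosome.

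RNA was sequenced from embryoid bodies, aggregates in which mouse embryonic stem cells differentiate, at day 3 and day 5. The controls came from the line 4_1, which is Gcn5 fx/fx: it carries floxed alleles of the gene for the histone acetyltransferase Gcn5 (floxed line below). The other line, 4C2, is Gcn5-/- (null line below). All samples are C57BL/6 by strain, no agent is named for any group, and each of the 4 groups holds 3 samples by the labels, whereas the series text speaks of duplicates. Each genotype is 1 line, so line and genotype cannot be told apart, and nothing says that samples of a group came from separate cultures, so p-values measure a spread that may be technical.

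Cholesterol is built from acetyl-CoA through mevalonate, isoprenoids and squalene, and fatty acids are built from the same acetyl-CoA through malonyl-CoA. Both pathways are driven by the SREBP transcription factors, which Scap escorts out of the endoplasmic reticulum when sterols are low and Insig proteins hold back when sterols are plentiful. Rapidly dividing stem cells make much of their own membrane lipid. Gcn5 uses acetyl-CoA to acetylate histones within the SAGA and ATAC complexes.

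Promoter sequence was available for 24 of the 31 genes, as the RefSeq window from 250 bases before to 50 bases after the transcript start (GRCm38.p6). No window was listed for Fdps, Fdft1, Sqle, Npc1, Stard4, Scd1 and Scd2. The windows were searched on both strands for 3 motifs: TCACNCCAC, a form of the sterol regulatory element, CCAAT, the box bound by NF-Y, which acts beside SREBP at many sterol genes, and CACGTG, an E-box that SREBP can also bind. No motif contains another. CCAAT was found in 20 of the 24 genes (83.3%), against 42.9% of the 11859 tested genes with a window and 37.4% of all 32851 windows. CACGTG was found in 5 of 24 (20.8%, in Dhcr7, Hsd17b7, Insig1, Sc5d and Scap), against 11.4% of tested genes and 7.15% of all windows. TCACNCCAC was found only in Hmgcs1 among the 24, against 1.46% of tested genes and 1.24% of all windows. A match is a description of these letters and not a bound site. Acat2, Acaca and Elovl6 had a window but no match to any of the 3 motifs, and Scap had no CCAAT. The 6 stretches printed here all hold CCAAT and come from the mevalonate, sterol, control and fatty acid groups, so they do not represent all 24 genes. They lie at chr13:119690141-119690340 (Hmgcs1, plus strand), chr13:8885531-8885605 (Idi1, plus), chr8:64733599-64733768 (Msmo1, minus), chr5:28071166-28071346 (Insig1, plus), chr11:120824572-120824667 (Fasn, minus) and chr11:60222713-60222777 (Srebf1, minus, the first of 3 windows listed). Each is given 5′ to 3′ on the gene's strand, with motif matches in capitals, where ATTGG is CCAAT read on the opposite strand.
Hmgcs1: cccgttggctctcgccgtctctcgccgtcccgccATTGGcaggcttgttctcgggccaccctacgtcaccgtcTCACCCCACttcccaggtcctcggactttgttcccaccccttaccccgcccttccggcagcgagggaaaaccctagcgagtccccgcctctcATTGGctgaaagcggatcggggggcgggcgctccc
Idi1: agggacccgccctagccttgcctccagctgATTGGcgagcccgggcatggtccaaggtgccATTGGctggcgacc
Msmo1: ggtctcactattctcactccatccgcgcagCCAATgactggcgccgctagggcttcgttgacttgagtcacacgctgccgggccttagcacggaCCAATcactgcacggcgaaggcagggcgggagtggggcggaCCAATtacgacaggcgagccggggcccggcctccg
Insig1: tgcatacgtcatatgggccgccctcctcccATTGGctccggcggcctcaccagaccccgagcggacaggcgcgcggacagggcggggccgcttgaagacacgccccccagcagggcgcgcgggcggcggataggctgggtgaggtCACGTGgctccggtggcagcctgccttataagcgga
Fasn: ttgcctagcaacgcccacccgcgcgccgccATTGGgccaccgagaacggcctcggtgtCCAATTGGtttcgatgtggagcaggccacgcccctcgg
Srebf1: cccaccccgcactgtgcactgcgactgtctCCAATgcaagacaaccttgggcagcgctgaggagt
In the stretches shown, Hmgcs1 held 1 sterol regulatory element between 2 CCAAT boxes, Msmo1 held 3 CCAAT boxes, and Fasn held 3, of which 2 overlap in opposite directions. The Hmgcs1 window held further CCAAT boxes outside its stretch, 237 bases before and 10 bases after the start. Insig1 paired 1 CCAAT box with 1 E-box, and in the stretch shown Srebf1 held a single CCAAT box.

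The table gives 1 normalised read count per gene and sample, that is, reads divided by 1 size factor per library, from 18022071 to 29446068 reads per library. Kat2a, in normalised reads, averaged 2228 ± 151 (SD, n = 3) in the floxed and 701 ± 122 in the null line at day 3, and 2207 ± 165 and 817 ± 67.5 at day 5; the deleted part is not given in the sources used here. The 1332 tested genes of chromosome 11 stood higher in the null line as a set, with a median log2 difference of 0.36 at day 3 and 0.33 at day 5 (88.36% and 79.88% above 0), whereas the medians of the other 15668 genes were -0.02 and -0.04. Marker lists also moved: between days 10 of 10 extraembryonic endoderm markers rose in both lines, and of 6 pluripotency markers 4 fell in both lines, Otx2 rose in both (1.14 ± 0.29 and 1.12 ± 0.29 on the log2 scale) and Sox2 rose in the floxed line (0.56 ± 0.07). The summed level of those 6 went from 36743 to 49842 down to 16003 to 22102 in the floxed line and from 32651 to 43030 down to 11604 to 14834 in the null line. Summed endoderm markers ran from 576 to 1674 in floxed and from 829 to 1217 in null samples at day 3, and from 2614 to 11361 and from 3416 to 5043 at day 5, with no marker of any list at 0. Of 5 neural markers 4 rose in the floxed and 3 in the null line, Zic1 by 5.96 ± 0.50 and 4.39 ± 0.50, and Zic1 was lower in null samples at day 5 (-3.30 ± 0.50). Of 6 fibroblast markers that stand for feeder cells 4 rose and 1 fell in each line, among them Col1a2 (4.10 ± 0.38 and 4.57 ± 0.38). Of 5 streak markers 1, Mixl1, fell in the floxed line and 2, Mixl1 and Eomes, in the null line. None of the 5 rose, although edgeR called 1 as rising in the floxed line and only 1 as falling in the null line. Over all tested genes 22.5% rose and 19.2% fell in the floxed line, and 22.6% and 21.9% in the null line. Between lines at day 5, 4 of the 6 pluripotency markers, 1 of 10 endoderm, 1 of 5 streak, 1 of 5 neural and 0 of 6 fibroblast markers (1 in edgeR and at an unadjusted p under 0.05) were called lower in null samples and none higher. In the fit with the replicate block these counts were 6, 1, 2, 3 and 1. Of all tested genes 13.5% were called lower at day 5, and 17.3% in the blocked fit. Counts of 1 of 10 and 1 of 5 lie near those shares. Between lines at day 3, 1 marker, Otx2, was called lower in null samples (-1.06 ± 0.29), though not in edgeR. No marker was called higher, and 2.03% of all tested genes were called lower. The 5 neural markers had a day 3 median of -1.0, with 3 lower at an unadjusted p under 0.05 and none higher. The blocked fit called 4 of these 5 lower at day 3, but its share of all tested genes was not counted. In these bulk samples, fewer cells of a type and less RNA per cell cannot be told apart. The part of these markers in the results below was not tested.

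Replicate values are given in the order of the replicate numbers, and replicate 3 differed from the other day 3 samples for many of these genes. It held the lowest value of its group for 25 of the 31 genes in floxed day 3 (80.6%, against 37.2% of all tested genes) and for 22 in null day 3 (71%, against 31.4%), including all 7 mevalonate genes in both. At day 5 the lowest floxed value fell in replicate 2 for 23 genes (74.2%, against 33.2%). Counts are therefore also given without the 4 libraries numbered 3, an alternative chosen after seeing the data.

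**Figure D1:**
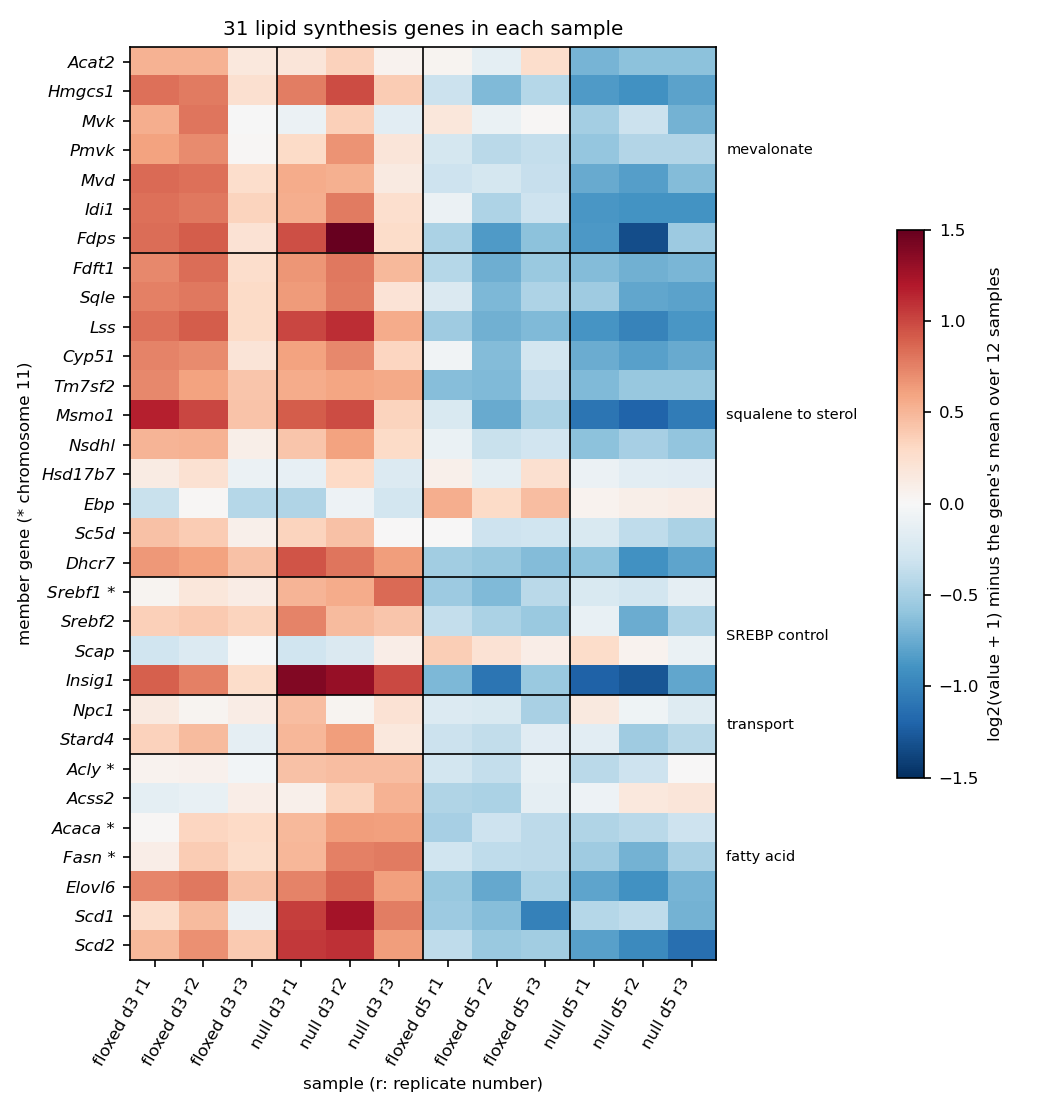
Level of each of the 31 genes (rows, grouped by role) in each of the 12 samples (columns), as log2(value + 1) minus the mean of that gene over the 12 samples; an asterisk marks chromosome 11. Most rows run from red at day 3 to blue at day 5 in both lines, while Ebp and Scap run the other way and Hsd17b7 shows little contrast.

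Levels between genes were compared per kilobase of exon in the floxed line at day 3. Exon length joins all annotated exons of a gene, so the ranks depend on the annotation. Hmgcs1, a synthase of the mevalonate pathway, was highest at 3667 normalised reads per kilobase, followed by the desaturase gene Scd2 (3317), Acly (3007), which encodes ATP citrate lyase, a source of cytosolic acetyl-CoA, and Fasn (2953), the fatty acid synthase. Acss2 (40.5), which makes acetyl-CoA from acetate, and Fdps (49.1), the farnesyl diphosphate synthase, were lowest. The joined exons of Acss2 span 10163 bases, and by mean normalised reads Acss2 (411.7) lay above Ebp (261.8) and Fdps (206.5). Fdps is uncertain, because 26.71% of its exon bases are shared with Gm43738 on the same strand, and its lowest library held 43 reads. The 31 genes together took 0.588% to 0.691% of reads in floxed and 0.735% to 0.85% in null samples at day 3. At day 5 they took 0.376% to 0.414% and 0.350% to 0.385%. The summed shares of the lines therefore did not overlap at day 3 and overlapped at day 5. Such a sum is weighted towards the highest genes, among them Fasn and Acly of chromosome 11 and Scd2 of chromosome 19. At day 3 the floxed and null means were 32329 and 43468 for Fasn, and 15874 and 21330 for Acly. Those of Scd2 were 18126 and 24234. By gene, 20 of the 31 log2 differences at day 3 lay above 0 and 11 below. The share without chromosome 11 was not counted.

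Between day 3 and day 5, most genes of both pathways fell in both lines. In the floxed line 26 of 31 fell and 2 rose, and in the null line 26 fell and none rose (1, Ebp, at an unadjusted p under 0.05 and in edgeR). The threshold for a call was an adjusted p below 0.05 (limma, Benjamini-Hochberg over all 17000 genes tested). Over that background 19.2% fell and 22.5% rose in the floxed line, and 21.9% fell and 22.6% rose in the null line. The same 25 of 31 genes fell in both lines, compared with 2351 of all 17000 tested genes (13.83%). They make up 96.15% of the 26 members that fell in each line. Over all tested genes, the 2351 stand against 3270 that fell in the floxed and 3730 in the null line. The median log2 change of the 31 genes was -0.82 in the floxed and -1.16 in the null line, against a median of 0 over all tested genes in each. Without the 4 libraries numbered 3, 26 fell and 2 rose in the floxed line (17.7% and 20.1% of all tested genes) and 26 fell and 1 rose in the null line (18.9% and 21.0%).

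In the mevalonate pathway 6 of 7 genes fell in the floxed line (median -0.93) and 7 of 7 in the null line (-1.16). Hmgcs1 stood at 19172, 18578 and 12783 normalised reads in floxed samples at day 3 and at 8632, 6847 and 8061 at day 5. In the null line it stood at 18492, 21329 and 14098 and then at 6010, 5751 and 6220. The days do not overlap in either line, and the log2 change was -1.09 ± 0.16 (SE; adjusted p = 0.000183, limma) in the floxed and -1.56 ± 0.16 (adjusted p = 1.39e-05) in the null line. Idi1, the isomerase that makes the isoprenoid building blocks interchangeable, changed by -0.93 ± 0.15 and -1.41 ± 0.15. Fdps fell from 229, 241 and 149 to 91.5, 70.4 and 82.9 in floxed samples and from 251, 363 and 155 to 70.1, 50.1 and 87.4 in null samples. Its changes were -1.31 ± 0.30 and -1.82 ± 0.30, with the widest errors of the 31 genes. Mvk, mevalonate kinase, did not pass in the floxed line (-0.42 ± 0.19, adjusted p = 0.0944) and fell in the null line (-0.55 ± 0.19, adjusted p = 0.0309). That null call was lost without null day 3 replicate 2, null day 5 replicate 1 or null day 5 replicate 3 (adjusted p up to 0.138).

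Of the 11 enzymes from squalene to sterol, 9 fell in each line, with medians of -1.06 in the floxed and -1.25 in the null line over the group. Msmo1, a sterol 4-methyl oxidase, had 5555, 4954 and 3339 normalised reads in floxed samples at day 3 and 2111, 1473 and 1777 at day 5. The null line had 4641, 4888 and 3120 and then 1159, 1081 and 1195. Neither line's days overlap, and the changes were -1.35 ± 0.20 (adjusted p = 0.000152) and -1.85 ± 0.20 (adjusted p = 1.62e-05) by limma. Lss, the lanosterol synthase that closes the sterol rings, went from 4753, 5021 and 3273 to 1855, 1621 and 1689 in floxed samples. In null samples it went from 5379, 5796 and 3941 to 1451, 1336 and 1458. Its changes of -1.31 ± 0.16 and -1.81 ± 0.16 were close to those of Msmo1. Hmgcs1 of the mevalonate group shares 12.12% of its exon bases with Gm48342 on the opposite strand. Fdft1, the squalene synthase, shares 18.31% of its exon bases with Ctsb on the opposite strand. Tm7sf2, a sterol reductase, shares 12.08% with Vps51 on the same strand. The values of these genes may therefore hold reads of the other gene or miss reads of the shared bases.

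No fall was called for the other 2 members of this group. Hsd17b7, a 3-ketosterol reductase, stood at 421 to 524 normalised reads in floxed samples at day 3 and 404 to 532 at day 5, and at 391 to 554 and 398 to 424 in null samples. The days overlap in both lines, with changes of -0.03 ± 0.14 and -0.13 ± 0.14. Ebp, the sterol isomerase encoded on the X chromosome, had 244, 312 and 230 normalised reads in floxed samples at day 3 and 452, 376 and 425 at day 5. It rose in the floxed line (0.68 ± 0.14, adjusted p = 0.00162, limma). In the null line it went from 226, 292 and 254 to 319, 327 and 334, a difference of 0.35 ± 0.14 that did not pass (adjusted p = 0.0537). With the replicate number as a block the null value passed (adjusted p = 0.0471), as it did with upper-quartile scaling (0.0448) and in edgeR (0.0498).

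Among the SREBP control genes, Srebf1, Srebf2 and Insig1 fell in both lines. Insig1, which retains SREBP in the endoplasmic reticulum and is itself an SREBP target, had the largest changes of the 31 genes in both lines. Its values were 7221, 6571 and 4704 in floxed samples at day 3 and 2430, 1811 and 2633 at day 5. In null samples they were 10143, 9600 and 7705 and then 1675, 1598 and 2253. The day 5 level was 0.373 times that of day 3 in the floxed line (log2 change -1.42 ± 0.18, adjusted p = 6.29e-05) and 0.200 times in the null line (-2.32 ± 0.18, adjusted p = 2.65e-06). Srebf2, the factor that mainly drives the sterol genes, changed by -0.82 ± 0.13 and -0.98 ± 0.13, and Srebf1, which mainly drives the fatty acid genes, by -0.64 ± 0.09 and -0.85 ± 0.09. Scap, the escort of SREBP, rose in the floxed line (0.39 ± 0.13, adjusted p = 0.0234) and was not called in the null line (0.22 ± 0.13, adjusted p = 0.178). The Scap call was lost without any of replicates 1 and 2 of floxed day 3 or day 5 (adjusted p up to 0.0983), and 13.23% of its exon bases lie opposite 5830462I19Rik.

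In the transport group, Npc1, which exports cholesterol from lysosomes, fell in the floxed line (-0.40 ± 0.11, adjusted p = 0.0122) and was not called in the null line (-0.28 ± 0.11, adjusted p = 0.0618). The null value passed with the replicate number as a block (adjusted p = 0.0178), and the floxed call did not survive leaving out floxed day 5 replicate 3 (adjusted p = 0.0538). Without the 4 libraries numbered 3, the floxed value of Npc1 was -0.31 (adjusted p = 0.0906). Stard4, a sterol carrier, fell in both lines (-0.51 ± 0.16 and -0.79 ± 0.16).

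In the fatty acid arm 6 of 7 genes fell in each line, with medians of -0.61 in the floxed and -1.26 in the null line. Elovl6, which elongates palmitate, changed by -1.26 ± 0.11 and -1.54 ± 0.11. Scd2, a stearoyl-CoA desaturase that puts a double bond into saturated fatty acids, fell from 17637, 20179 and 16563 to 9688, 8584 and 8776 in the floxed line. It fell from 26224, 26995 and 19482 to 7144, 6520 and 5766 in the null line. These are log2 changes of -1.0 ± 0.12 (adjusted p = 4e-05) and -1.89 ± 0.12 (adjusted p = 1.21e-06, limma), with no overlap of days in either line. Acss2 was the member not called in either line (-0.30 ± 0.14, adjusted p = 0.0955, and -0.22 ± 0.14, adjusted p = 0.211). The floxed falls of Acly (-0.28 ± 0.09), Acat2 of the mevalonate group (-0.35 ± 0.12) and Stard4 were each lost without any of replicates 1 and 2 of floxed day 3 or day 5, with adjusted p up to 0.142.

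**Figure D2:**
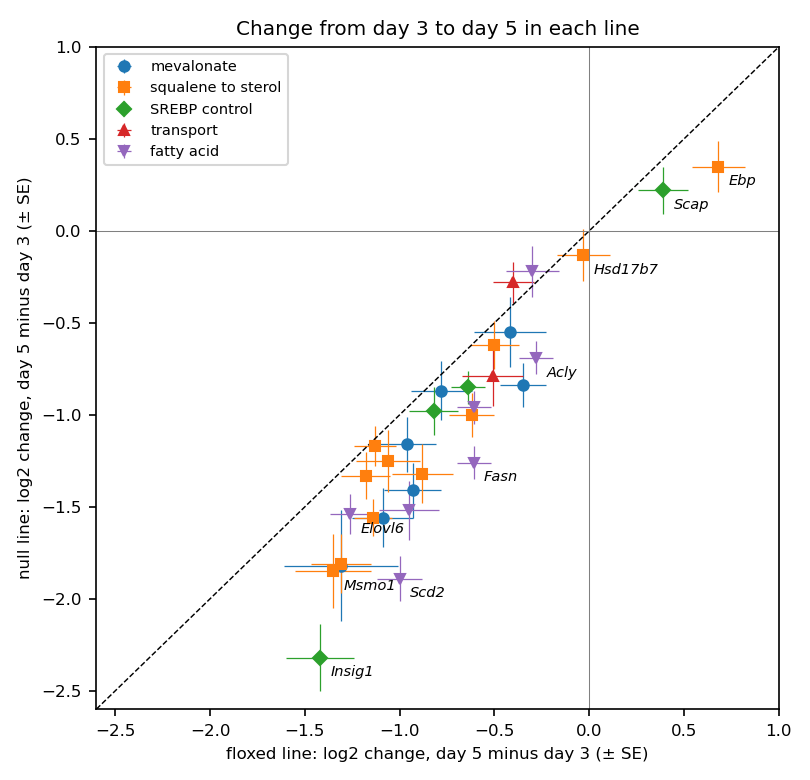
Log2 change from day 3 to day 5 in the floxed line (horizontal axis) and the null line (vertical axis) for the 31 genes, each with its SE; symbols give the role, and the dashed line marks equal changes. Of the 31 points, 29 lie below the dashed line, and Insig1 lies lowest at -1.42 and -2.32.

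At day 3 the called differences between the lines lay in the fatty acid arm and in Srebf1. Null samples had higher Srebf1, Acly, Acaca, Fasn and Scd1, by 1.29 to 1.74 times, and none of the 31 genes was called lower. These 5 of 31, of which 4 lie on chromosome 11, compare with 4.09% of all tested genes called higher and 2.03% called lower. By role, 4 of 7 fatty acid genes and 1 of 4 control genes were higher, whereas none of the 7 mevalonate genes, 11 sterol genes and 2 transport genes was called. The median log2 difference was 0.41 for the fatty acid genes, 0.36 for the control genes, -0.12 for the mevalonate genes and -0.01 for the sterol genes, against 0.00 over all genes. All 4 members on chromosome 11 belong to the fatty acid and control groups, so role and chromosome cannot be told apart for them. Off that chromosome the median was 0.39 for 4 fatty acid genes, of which Scd1 alone was called. It was 0.18 for 3 control genes, none of them called. At an unadjusted p under 0.05 there were 9 of 31 genes, all higher in null samples (0 mevalonate and 1 sterol gene, Dhcr7), and edgeR also called 5 higher and 0 lower (3.91% and 2.02% of all tested genes). Those 9 include the 4 genes of chromosome 11, and the share of all tested genes at an unadjusted p under 0.05 was not counted. Without floxed day 3 replicate 3, 4 genes were higher and 1, Mvk, was lower (-0.64, adjusted p = 0.0495). The share of all tested genes called in that refit was not counted.

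Of these 5, Scd1 (ENSMUSG00000037071.2, chr19:44394455-44407879, minus strand), a stearoyl-CoA desaturase beside Scd2, is the gene off chromosome 11 and had the largest difference. Floxed samples held 2891, 3342 and 2265 normalised reads, and null samples 4921, 5719 and 4096. All null samples lay above all floxed samples, and the log2 difference was 0.80 ± 0.16 (1.74 times, adjusted p = 0.0127, limma). The median difference of the 539 tested genes of chromosome 19 was -0.04. Scd1 kept its call without each single library (adjusted p up to 0.0487) and without the 4 libraries numbered 3 (0.77, adjusted p = 0.0102). Scd1 and Scd2 are paralogs, and how reads shared between them were counted is not given in the sources used here.

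The other 4 genes lie on chromosome 11. Srebf1 (ENSMUSG00000020538.15, chr11:60199089-60222581, minus strand) had 2614, 2862 and 2755 in floxed and 3642, 3761 and 4612 in null samples, a log2 difference of 0.54 ± 0.09 (adjusted p = 0.00601, limma). Acly (ENSMUSG00000020917.17, chr11:100476353-100528000, minus strand) had 16097, 16335 and 15189 in floxed and 21178, 21390 and 21424 in null samples, a difference of 0.43 ± 0.09 (adjusted p = 0.0192). In both genes every null sample lay above every floxed sample, and Acly varied little among null samples. Acaca (ENSMUSG00000020532.18, chr11:84129672-84401651, plus strand), the acetyl-CoA carboxylase that makes malonyl-CoA, had 5898, 7278 and 7210 in floxed and 8201, 9002 and 8941 in null samples (0.36 ± 0.09, adjusted p = 0.0261). Fasn (ENSMUSG00000025153.9, chr11:120805846-120824547, minus strand) had 29012, 35269 and 32706 in floxed and 38292, 45716 and 46394 in null samples (0.43 ± 0.09, adjusted p = 0.0177). Again the groups did not overlap.

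These 4 differences stand beside a chromosome 11 median of 0.36. With that median subtracted from the null samples, none of the 4 was called: Srebf1 stood at 0.18 (adjusted p = 0.317), Acly at 0.07 (0.744), Fasn at 0.07 (0.74) and Acaca at 0.01 (0.984). A change of these genes and a difference of the whole chromosome between the 2 lines cannot be told apart. Among the 27 genes off chromosome 11, the median difference was 0.04, against -0.02 for all 15668 tested genes off it. Of these 27 genes 1, Scd1, was called. Over all tested genes, chromosome 11 included, 4.09% were called higher. The called share off chromosome 11 alone was not counted, so 1 of 27 is not read as an excess. The calls of Acaca and Fasn were lost without floxed day 3 replicate 1, null replicate 2 or null replicate 3, and that of Acly without those or floxed replicate 3 (adjusted p up to 0.0978, 0.0818 and 0.0627). Without the 4 libraries numbered 3, Acaca (0.39, adjusted p = 0.1) and Fasn (0.39, adjusted p = 0.123) were not called, and 4 of 31 genes were higher (1.47% of all tested genes).

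Further genes off chromosome 11 had differences that did not pass. Insig1 (ENSMUSG00000045294.11, chr5:28071363-28078662, plus strand) had 7221, 6571 and 4704 in floxed and 10143, 9600 and 7705 in null samples, which do not overlap, with a difference of 0.58 ± 0.18 (adjusted p = 0.0802, limma). Scd2 (ENSMUSG00000025203.5, chr19:44293674-44306864, plus strand) differed by 0.41 ± 0.12 (adjusted p = 0.0674), and Acss2 (ENSMUSG00000027605.18, chr2:155517948-155585724, plus strand) by 0.36 ± 0.14 (adjusted p = 0.141). With the replicate number as a block, Scd2 (adjusted p = 0.0127) and Acss2 (adjusted p = 0.0302) passed and 7 of 31 genes were higher (6.45% of all tested genes). Scd2 also passed without the 4 libraries numbered 3 (0.50, adjusted p = 0.03). Hmgcs1 (0.10 ± 0.16), Sqle (-0.06 ± 0.17), the squalene epoxidase, and Cyp51 (0.00 ± 0.16), the lanosterol demethylase, had null and floxed samples that overlapped.

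**Figure D3:**
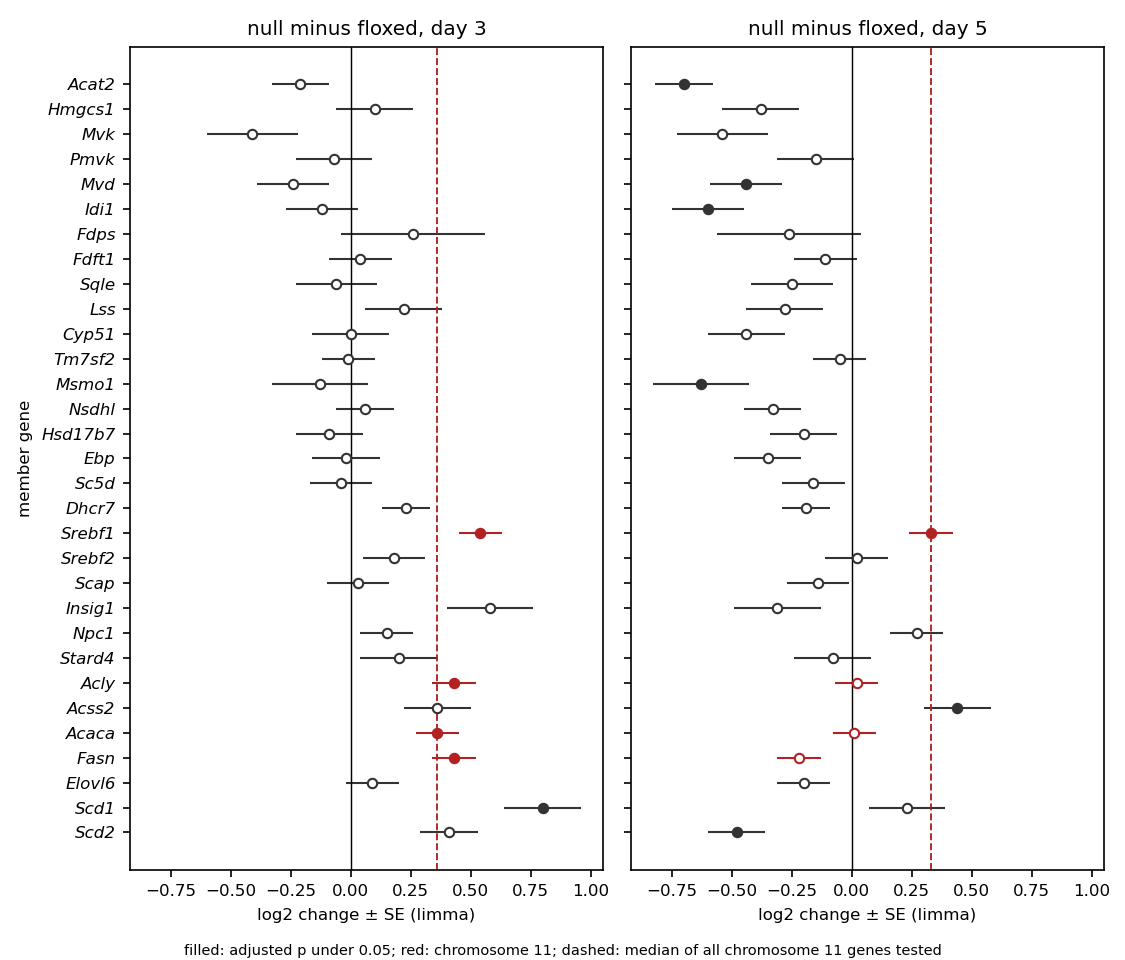
Log2 difference (null minus floxed) with its SE for each of the 31 genes at day 3 (left) and day 5 (right); filled points passed at an adjusted p under 0.05, red marks chromosome 11, and the dashed line is the median of all tested chromosome 11 genes (0.36 and 0.33). At day 3 the filled points lie to the right of 0, and at day 5 filled points lie on both sides, with the 7 mevalonate and 11 sterol genes all left of 0.

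At day 5 most called differences lay in the sterol pathway or in a desaturase and were lower in null samples. Null samples had lower Acat2, Mvd, Idi1, Msmo1 and Scd2 and higher Srebf1 and Acss2. These 5 lower and 2 higher genes of 31 (16.1% and 6.45%) compare with 13.5% and 13.0% of all tested genes, so the shares lay near and below the background. All 7 mevalonate genes and all 11 sterol genes had values below 0, with 3 and 1 of them called and medians of -0.44 and -0.25. The median of all 31 was -0.20, against -0.02 over all genes tested. Medians were -0.06 for the control genes, 0.10 for the transport genes and 0.01 for the fatty acid genes.

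In the mevalonate pathway Acat2 (ENSMUSG00000023832.13, chr17:12942890-12960747, minus strand), the cytosolic thiolase that joins acetyl-CoA units, had the largest difference. Floxed samples held 2491, 2182 and 2919 normalised reads and null samples 1493, 1577 and 1575, with no overlap (-0.70 ± 0.12, 0.616 times, adjusted p = 0.00143, limma). Idi1 (ENSMUSG00000058258.14, chr13:8885501-8892451, plus strand) had 2217, 1707 and 1893 in floxed and 1286, 1259 and 1260 in null samples (-0.60 ± 0.15, adjusted p = 0.0101). Both calls held without each single library, at adjusted p up to 0.00656 and 0.0445. Mvd (ENSMUSG00000006517.4, chr8:122433601-122443422, minus strand), mevalonate diphosphate decarboxylase, had 765, 791 and 748 in floxed and 562, 535 and 605 in null samples (-0.44 ± 0.15, adjusted p = 0.0456). Its groups did not overlap, but the call was lost in edgeR (-0.42, adjusted p = 0.053), with upper-quartile scaling (-0.40, adjusted p = 0.0623) and without any of 8 libraries (adjusted p up to 0.126). Those 8 were the 6 of day 5 and null day 3 replicates 1 and 2. Mvk (-0.54 ± 0.19, adjusted p = 0.0508) and Hmgcs1 (-0.38 ± 0.16, adjusted p = 0.097) did not pass.

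In the sterol group Msmo1 (ENSMUSG00000031604.10, chr8:64718139-64733792, minus strand) had 2111, 1473 and 1777 in floxed and 1159, 1081 and 1195 in null samples. The groups did not overlap, and the difference was -0.63 ± 0.20 (adjusted p = 0.0317, limma). The call was lost without floxed day 5 replicate 1 or 3 or any null day 5 replicate (adjusted p up to 0.119). Cyp51 (-0.44 ± 0.16, adjusted p = 0.0587), Nsdhl, a sterol dehydrogenase (-0.33 ± 0.12, adjusted p = 0.0699), and Ebp (-0.35 ± 0.14, adjusted p = 0.0789) had no overlap of groups but did not pass. Fdft1 (-0.11 ± 0.13) and Tm7sf2 (-0.05 ± 0.11) had overlapping groups.

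With the replicate number as a block, 8 of 31 genes were lower and 4 higher at day 5, where the same fit called 17.3% of all tested genes lower and 15.9% higher. The added lower genes were Mvk (adjusted p = 0.0134), Cyp51 (0.0309) and Nsdhl (0.0329), and the added higher ones Scd1 (0.0263) and Npc1 (0.0314). Without the 4 libraries numbered 3, 7 were lower and 2 higher (7.58% and 7.64% of all tested genes), with Hmgcs1 (-0.39, adjusted p = 0.0431) and Lss (-0.32, adjusted p = 0.0477) added to the lower ones. Leaving out single libraries moved the count of 7 called genes: it was 2 when null day 5 replicate 3 was left out, 4 for null day 5 replicate 2, 3 for floxed day 5 replicate 1 and 11 for floxed day 3 replicate 3. The share of all tested genes called in those refits was not counted. The movement is therefore not read as particular to these genes.

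The fatty acid genes were split at day 5. Scd2 had 9688, 8584 and 8776 in floxed and 7144, 6520 and 5766 in null samples and was lower (-0.48 ± 0.12, adjusted p = 0.0122, limma), a call lost without null day 5 replicate 3 (adjusted p = 0.0513). Acss2 had 310, 307 and 386 in floxed and 405, 475 and 482 in null samples and was higher (0.44 ± 0.14, adjusted p = 0.0311), with no overlap. Its call was lost without floxed replicate 1 or 2 or null replicate 2 or 3 of day 5 (adjusted p up to 0.0979). Scd1 stood at 1640, 1538 and 1194 in floxed and 1789, 1852 and 1465 in null samples, which overlap (0.23 ± 0.16, adjusted p = 0.324).

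On chromosome 11 at day 5, Srebf1 had 1741, 1609 and 1929 in floxed and 2185, 2115 and 2325 in null samples and was higher (0.33 ± 0.09, adjusted p = 0.0215, limma). Leaving out floxed day 5 replicate 1 or 2 or null day 5 replicate 3 ended that call (adjusted p up to 0.0778), and with the chromosome's median of 0.33 subtracted it stood at 0.00 (adjusted p = 0.98). Acly (0.02 ± 0.09) and Acaca (0.01 ± 0.09) had overlapping groups, and Fasn stood at 21910, 20778 and 20524 in floxed and 18611, 16560 and 19224 in null samples (-0.22 ± 0.09, adjusted p = 0.0991). Relative to the chromosome's median, all 3 were lower in null samples: Fasn at -0.54 (adjusted p = 0.00159), Acaca at -0.31 (0.0199) and Acly at -0.31 (0.0318). Acly and Acaca stood within their SE of 0 before that subtraction, so their calls as lower come with it. After it, 8 of 31 genes were lower and 1 higher (13.9% and 10.6% of all tested genes).

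**Figure D4:**
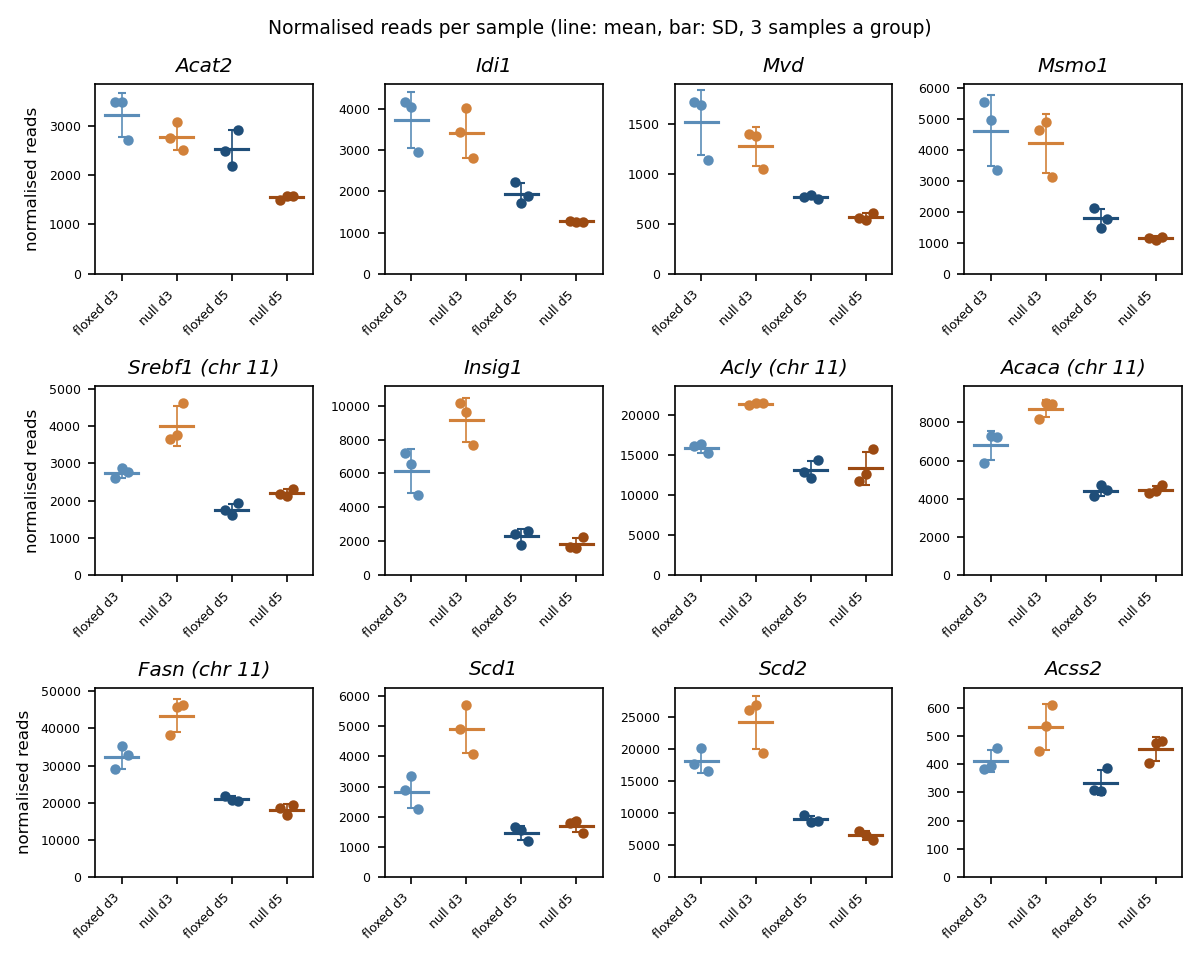
Normalised reads of 12 of the genes in each sample (points) with the group mean (line) and SD (bar), 3 samples a group, by line and day on axes that start at 0. By mean, Acat2, Idi1, Mvd, Msmo1, Insig1, Fasn and Scd2 have null day 5 as their lowest group. Srebf1, Insig1, Acly, Acaca, Fasn, Scd1, Scd2 and Acss2 have null day 3 as their highest.

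The estimated difference between lines was lower at day 5 than at day 3 for most of the genes, but only 1 passed the test of that shift. The interaction (day 5 difference minus day 3 difference) was below 0 for 29 of 31 genes, with a median of -0.33. Of all tested genes 52.2% were below 0, with a median of -0.01. At an unadjusted p under 0.05 (limma) there were 11 of the 31, and the share of all tested genes at that threshold was not counted. These genes share pathways and the same 12 libraries, so their signs are not independent. The count of 29 therefore does not test a shift of the set. The 29 points below the line of equal changes in the plot of both lines are this same count. Scd2 was called (-0.89 ± 0.17, adjusted p = 0.0451, limma), where 0.229% of all tested genes were called in that direction. Null samples held 1.33 times the floxed level of Scd2 at day 3 and 0.717 times at day 5. The call was lost without any single library other than null day 3 replicate 3 (adjusted p up to 0.116), and it stood at -0.91 (adjusted p = 0.0362) without the 4 libraries numbered 3. Insig1 had the same size of shift with a wider error (-0.90 ± 0.26, adjusted p = 0.136). Fasn (-0.65 ± 0.13, adjusted p = 0.0513) and Scd1 (-0.57 ± 0.23, adjusted p = 0.287) did not pass. With the replicate number as a block, Scd2 (adjusted p = 0.00884), Scd1 (0.0163) and Fasn (0.0245) passed, and that fit called 1.36% of all tested genes lower.

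Other genes of lipid handling were counted in 5 lists, to be read against the shares of all tested genes given above (22.5% rose and 19.2% fell in the floxed line, 22.6% and 21.9% in the null line, with 4.09% and 2.03% higher and lower in null samples at day 3 and 13.0% and 13.5% at day 5). Of 7 genes of sterol sensing and SREBP processing, limma and edgeR called none between the lines at either day (0 at day 3 and 1 at day 5 had an unadjusted p under 0.05), and 2 rose with time in each line, Erlin1 (0.56 ± 0.10 and 0.38 ± 0.10) and Erlin2 (0.61 ± 0.07 and 0.59 ± 0.07), whose products take part in the degradation of sterol-regulated proteins. In a list of 7, 2 genes lie near the share of all genes that rose. Of 9 genes of sterol uptake, transport and esterification, Tmem97 on chromosome 11 was higher in null samples at day 3 (0.55 ± 0.08). At day 5 the lipoprotein receptor gene Scarb1 (0.31 ± 0.11) and the oxysterol-binding gene Osbp (0.23 ± 0.08) were higher and Npc2, the lysosomal partner of Npc1, lower (-0.26 ± 0.09), although edgeR called none of the 9 lower. Over time 2 rose and 4 fell in each line. With the replicate number as a block, 3 were higher and 1 lower in null samples at day 3.

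Of 6 genes of sterol efflux and LXR, the nuclear receptor that senses oxysterols, Mylip was higher in null samples at day 3 (0.88 ± 0.17, adjusted p = 0.0104, limma) and day 5 (0.70 ± 0.17, adjusted p = 0.0109). Mylip encodes an LXR-induced ubiquitin ligase for lipoprotein receptors. The replicate block added Nr1h2, an LXR gene, as lower at day 3 (-0.26 ± 0.07, adjusted p = 0.0382). With time, the cholesterol exporter gene Abca1 rose (1.72 ± 0.25 in floxed, 2.12 ± 0.25 in null) and Abcg1 fell (-1.34 ± 0.21 and -1.44 ± 0.21), within counts of 2 higher and 3 lower in the floxed and 1 higher and 2 lower in the null line. Of 7 genes of isoprenoid branches and sterol reduction, Pdss1, which builds the ubiquinone tail, was lower in null samples at day 5 (-0.54 ± 0.16). Over time 1 of these 7 rose in each line, and 2 fell in the floxed and 3 in the null line, which lies near the background.

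Of 13 further genes of fatty acid synthesis, elongation and desaturation, 6 fell with time in the floxed and 8 in the null line and none rose in limma or edgeR (0 at an unadjusted p under 0.05). The carboxylase gene Acacb changed by -1.57 ± 0.13 and -1.66 ± 0.13, and the desaturase gene Fads2 by -0.82 ± 0.11 and -1.40 ± 0.11. Between lines, Fads1, a desaturase of polyunsaturated fatty acids, was higher in null samples at day 3 (0.30 ± 0.07, adjusted p = 0.0231, limma) and lower at day 5 (-0.27 ± 0.07, adjusted p = 0.014). Its interaction passed (-0.57 ± 0.10, adjusted p = 0.0345). Mid1ip1, a regulator of acetyl-CoA carboxylase (-0.77 ± 0.16), and Hsd17b12, an elongation enzyme (-0.32 ± 0.09), were also lower in null samples at day 5. In the blocked fit 4 of the 13 were lower and 1 higher at day 5.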

How the data were processed

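RNA-seq values of 12 embryoid body samples (3 per line and day) were used. The deposited table holds 1 signal value per gene and sample: the authors' read counts divided by 1 size factor per sample, as the values show (whole reads recovered for 100% of values, tolerance 0.01). Per the submitters' processing notes, the tools were DESeq 1.16.0, HTSeq 0.6.0, TopHat2 2.0.10 and CASAVA 1.8.2, with the build mm10. Use of the strand in counting is not given in the sources used here. Per the labels' protocols, libraries were made with a stranded total RNA kit and 8 PCR cycles. Symbols and positions came from GENCODE M21 by ID without version (18199 matched, 70 did not). Depth ran from 18022071 to 29446068 reads per library.

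Genes were tested in R 4.3.3 with limma 3.58.1 (trended prior), fitting 4 group means to log2(value + 1) of the 12 samples. The filter, a group mean of 10 or more in any group, left 17000 genes and removed 1269. It had 8 residual and 5 prior degrees of freedom, two-sided p and Benjamini-Hochberg adjustment over all genes tested. Fold changes are on that log2 scale and understate those of low genes. The method was tested on simulated data. The contrasts were the line difference at each day, the day difference in each line, and the interaction. Alternatives were a pseudocount of 8, no filter, upper-quartile scaling, edgeR 4.0.16 on the recovered reads, chromosome 11 left out or centred, the replicate block, and each library left out.

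Same-numbered null and floxed samples deviated together (correlations of 0.27 to 0.372 at day 3 and 0.247 to 0.424 at day 5, others at most 0.0268), as did null samples of both days (0.123 to 0.282, others at most 0.0521). In the floxed line the lowest was 0.0814, so numbers were not taken as pairing its days. Values in every sample are given for genes called between the lines or in the interaction and for those with the largest changes between days. Values in every sample of Hmgcs1, Hsd17b7 and Ebp were added after the data were seen. The members and lists were chosen with earlier results of these data known.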

Additional observations from a re-analysis of the deposited data

Results flagged for a closer look

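The line difference of Scd2 changed between days: the day 5 difference minus the day 3 difference was -0.89 on the log2 scale (limma interaction, adjusted p = 0.0451, SE 0.17). Null samples were higher on average at day 3 (24234 ± 4133 against 18126 ± 1857 normalised reads, SD, n = 3), where the groups overlap, and lower at day 5 (6477 ± 690 against 9016 ± 590), where all 3 null samples lie below all 3 floxed samples.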

How the results depend on the processing

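At day 3 the count of 5 called genes became 1 with chromosome 11 left out or centred and ran from 2 to 5 with single libraries left out. At day 5 the count of 7 became 12 with the replicate block and ran from 2 to 11 with single libraries left out. Day counts ran from 24 to 29 in the floxed line (28 called) and from 25 to 27 in the null line (26 called). The interaction count of 1 became 2 with a pseudocount of 8 (Fasn, -0.65, adjusted p = 0.0497), 3 with the replicate block, and ran from 0 to 1 with single libraries left out. Shares of all tested genes were not counted with single libraries left out, so those ranges are not read as particular to the 31 genes. Acaca and Acly at day 5 lay within their SE of 0, so a change of their sign is not read as a reversal. Acaca (0.01) went to -0.31 with chromosome 11 centred and to -0.02 without the 4 libraries numbered 3. It ran from -0.04 to 0.06 with single libraries left out. Acly (0.02) went to -0.31 centred, to -0.04 without those 4, and ran from -0.10 to 0.10 with single libraries left out. The cause was not tested, beyond what centring does by construction. In the floxed line, where numbers are not taken as pairing the days, the replicate block added Acss2 (adjusted p = 0.0197) and Mvk (adjusted p = 0.031), giving 28 falls, and Mvk also fell without the 4 libraries numbered 3 (-0.64, adjusted p = 0.0126). Beyond the genes given with a blocked value, the replicate block changed no other call among the 31 genes named. Among the 210 values of the 5 further lists it ended 0 calls and added 13. Precision is limited by 3 samples a group (SEs of the 31 genes of 0.09 to 0.30 between groups and 0.12 to 0.42 for the interaction) and, for Fdps, by depth (43 reads in its lowest library).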
